A study of Mus musculus with 18 samples.

Results

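Transcripts of 10 circadian clock genes, Arntl, Clock, Npas2, Per1, Per2, Per3, Nr1d1, Nr1d2, Dbp and Tef, were examined in the livers of 18 male mice. The genes were chosen by name, with earlier results of these data known. Each of their probe sets on the array with a single gene symbol was taken. This gave 26 probe sets for 10 of the 18193 genes that had such a probe set. Of the 26, 21 passed the filter on low signal and were tested, at least 1 for each gene, among 22888 tested probe sets of 12885 genes. The 3 groups were male mice, named C56BL/6J in the strain field and C57BL/6J in the growth protocol, that were given AIN93G diet (control), AIN93G with 0.05% quercetin or AIN93G with 1% quercetin. Quercetin is a dietary flavonol. Feeding began at 5 weeks of age and lasted 20 weeks. Each diet had 12 mice housed 3 per cage, and arrays were made from 6 mice per diet, 1 array per mouse. Lights were off from 8:00 to 20:00. The animals were killed under pentobarbital, and the sources used here do not give the hour of killing, the feeding state or the cage of each mouse.

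The circadian clock of liver cells is a feedback loop of transcription. ARNTL (also called BMAL1) pairs with CLOCK or its relative NPAS2 and switches on genes with E-box motifs, among them the period genes, Nr1d1, Nr1d2, Dbp and Tef. The period proteins then inhibit that activator, and the receptors NR1D1 and NR1D2 repress Arntl, so that Arntl and Npas2 peak at the opposite time of day from Dbp and its relatives. DBP and TEF are transcription factors that bind D-box motifs and drive daily output genes of the liver. Per1 and Per2 are also induced acutely by glucocorticoids, feeding and stress signals. A liver taken at a single time thus holds a snapshot of the cycle, and mice killed at different phases differ in many of these transcripts at once.

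The promoter windows of the members were searched for the sequence elements through which this loop is known to run. RefSeq windows of GRCm38.p6, from 250 bases before to 50 after an annotated start, were found for 9 of the 10 genes, 14 windows in all, and Per2 was not matched. Both strands were searched for the E-box CACGTG, the E-box variant CACGTT, the D-box TTACGTAA or TTATGTAA, the ROR element core TAGGTCA or TGGGTCA, through which NR1D1 and NR1D2 act, and the cAMP element TGACGTCA. The motifs do not overlap one another in the 5 windows printed here, which are shown because each holds a match. Capitals mark the match, and each sequence runs 5′ to 3′ on the strand of its gene.
Arntl, chr7:113207261-113207560, plus strand: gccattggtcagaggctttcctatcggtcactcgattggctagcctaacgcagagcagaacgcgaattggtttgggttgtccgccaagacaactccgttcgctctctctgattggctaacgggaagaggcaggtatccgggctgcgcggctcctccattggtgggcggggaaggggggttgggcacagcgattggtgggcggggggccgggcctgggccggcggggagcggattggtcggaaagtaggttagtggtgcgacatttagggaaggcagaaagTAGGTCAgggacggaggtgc
Nr1d1, chr11:98775328-98775627, minus strand: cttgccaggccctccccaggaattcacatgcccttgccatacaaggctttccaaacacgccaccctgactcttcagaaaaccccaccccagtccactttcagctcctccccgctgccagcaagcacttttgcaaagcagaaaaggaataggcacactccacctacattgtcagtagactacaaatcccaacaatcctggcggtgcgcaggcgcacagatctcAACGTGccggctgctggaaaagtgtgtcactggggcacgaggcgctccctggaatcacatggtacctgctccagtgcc
Per1, chr11:69098699-69098998, plus strand: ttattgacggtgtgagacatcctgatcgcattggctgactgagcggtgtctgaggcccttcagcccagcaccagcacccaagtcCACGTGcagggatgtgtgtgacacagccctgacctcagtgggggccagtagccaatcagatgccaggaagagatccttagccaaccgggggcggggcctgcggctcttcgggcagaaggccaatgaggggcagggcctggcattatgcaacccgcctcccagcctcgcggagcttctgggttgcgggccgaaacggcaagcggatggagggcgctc
Per3, chr4:151044616-151044915, minus strand: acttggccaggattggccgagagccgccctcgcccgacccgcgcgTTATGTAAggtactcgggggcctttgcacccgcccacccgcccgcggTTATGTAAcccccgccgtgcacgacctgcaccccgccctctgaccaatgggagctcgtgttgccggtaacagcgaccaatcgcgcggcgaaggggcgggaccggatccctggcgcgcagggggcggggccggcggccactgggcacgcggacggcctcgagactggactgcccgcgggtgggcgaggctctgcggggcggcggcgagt
Tef, chr15:81802423-81802722, plus strand: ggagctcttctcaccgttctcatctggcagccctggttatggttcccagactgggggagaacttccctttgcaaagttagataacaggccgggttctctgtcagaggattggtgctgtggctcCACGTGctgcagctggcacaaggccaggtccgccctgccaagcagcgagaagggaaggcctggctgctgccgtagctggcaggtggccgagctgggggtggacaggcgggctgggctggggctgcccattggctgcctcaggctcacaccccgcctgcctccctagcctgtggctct
The Arntl window held a ROR element core starting at base 31 after the start. The Nr1d1 window held the E-box variant, read on the opposite strand, 28 bases before the start. An E-box lay 166 bases before the start in Per1 and 127 bases before it in Tef, and a second Tef window, chr15:81811164-81811463, held an E-box 138 bases before its start. Per3 held 2 copies of the same D-box, 205 and 158 bases before its start. The windows of Clock, Npas2, Nr1d2 and Dbp held 0 of the searched motifs. Of all 32851 windows in the table, 7.15% held the E-box, 4.68% the variant, 1.06% a D-box, 6.45% a ROR element core and 1.79% the cAMP element, which 0 of the 14 member windows held. A match is a description of these letters only.

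Expression is given as log2 of the deposited signal intensity after adding 16, so a value of 4 stands for an intensity of 0, and differences are log2 ± SE. The arrays as deposited did not share a common median, and their scaling is not given in the sources here. The median of the tested probe sets ran from 6.25 to 6.73 over the 18 arrays. Its diet means were 6.49 ± 0.11 in controls, 6.52 ± 0.18 at 0.05% and 6.45 ± 0.15 at 1% (SD, n = 6 mice each). The tissue label was borne out by 7 of 8 listed hepatocyte markers, those that were tested, with mean levels from 11.6 to 13.8. In a piece of tissue, fewer cells of a type and less RNA per cell cannot be told apart. The labels name no batch.

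The question for the diets was whether quercetin altered these transcripts. With limma and Benjamini-Hochberg adjustment over all 22888 tested probe sets, 0 of the 21 member probe sets passed an adjusted p of 0.05 in any of the 3 comparisons. Over all tested probe sets 1% against control gave 1 call (0.00437%), 0.05% against control gave 0 (0.0%), 1% against 0.05% gave 2 (0.00874%) and a difference between any diets 1 (0.00437%). At an unadjusted p under 0.05, 3 of the 21 members were lower at 1% than in controls, where 5.02% of all tested probe sets met that threshold. In 0.05% against control, 1 was higher and 2 were lower, against 3.85% of all. In 1% against 0.05%, 2 were lower, against 6.76%, and 4 differed between any diets, against 5.59%. These 8 entries in pairwise comparisons came from 5 probe sets of 4 genes, Per1, Per2, Nr1d1 and Tef, and probe sets of 1 gene are not independent of each other. The 2 comparisons with controls share the control mice, and the 2 with 0.05% share those mice, so their results are not separate evidence.

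**Figure D1:**
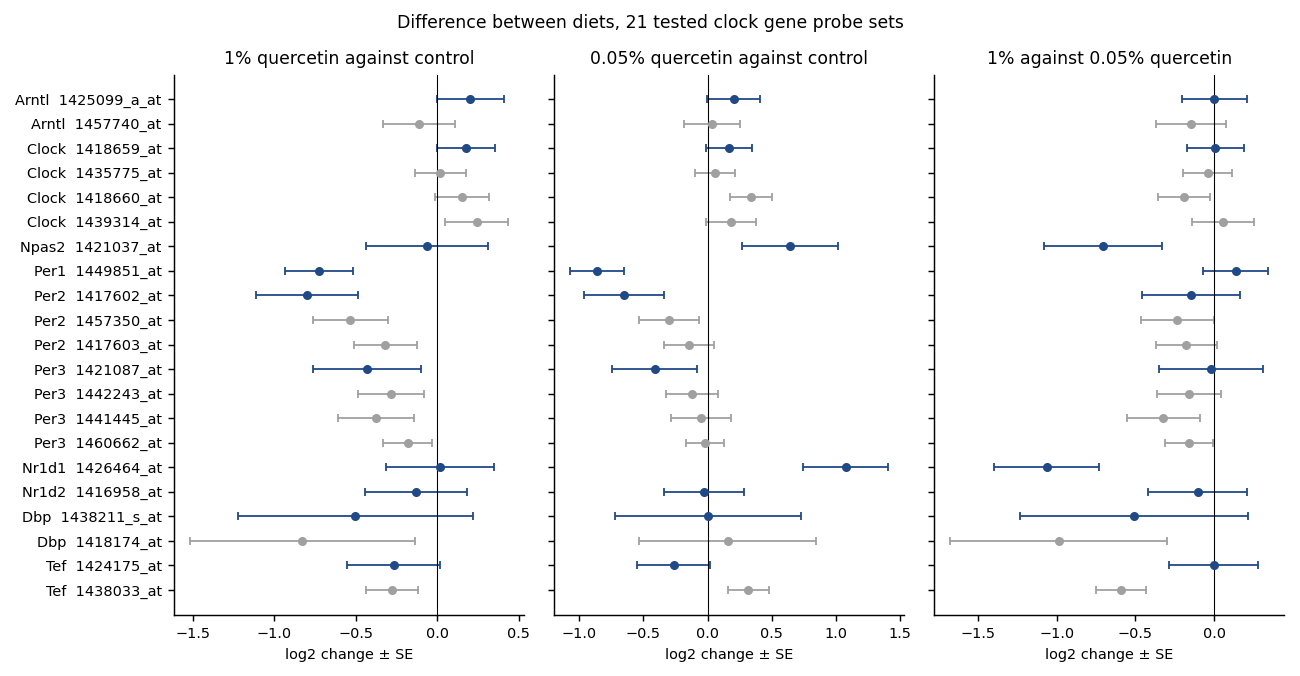
Log2 difference ± SE (x axis) of each of the 21 tested clock gene probe sets (y axis, brightest probe set of each gene in blue, others in grey) for the 3 comparisons of diets. Per1 lies at -0.73 and -0.86 against the control diet, Nr1d1 at 1.08 for 0.05% against control, and the Dbp bars are the widest, with a standard error of 0.72 for the brighter probe set.

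Per1, a repressor of the loop that responds quickly to hormones, was the member with the smallest p against the control diet. Its single probe set ran from 6.13 to 7.12 with a median of 6.62 in the 6 controls. At 0.05% quercetin it ran from 5.00 to 6.27 with a median of 5.80, and at 1% from 5.27 to 6.18 with a median of 5.99. In each quercetin group, 6 of 6 mice lay below the control mean and 5 of 6 below every control, and only 1 mouse of each quercetin group reached the control range. The mean was 6.60 ± 0.38 in controls, 5.74 ± 0.47 at 0.05% and 5.88 ± 0.33 at 1% (SD, n = 6). The difference was -0.86 ± 0.21 for 0.05% against control (limma, unadjusted p = 0.000384, adjusted p = 0.733) and -0.73 ± 0.21 for 1% against control (adjusted p = 0.623). The doses differed by 0.14 ± 0.21. Over the alternatives of processing and of left-out mice the difference ranged from -1.13 to -0.71 at 0.05% and from -0.92 to -0.60 at 1%. Per1 thus lay lower in both quercetin groups by more than the SD within each group, but did not pass over the whole array.

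Per2, the related repressor, was carried by 3 tested probe sets. The brightest had a median of 6.60 in controls, between 6.56 and 8.35, where control replicates 1 (7.79) and 2 (8.35) stood apart from 4 mice between 6.56 and 6.63. It ran from 5.70 to 7.11 with a median of 6.36 at 0.05%, and from 5.77 to 7.12 with a median of 6.10 at 1%. In each quercetin group 5 of 6 mice lay below the control mean and 4 of 6 below every control. The difference was -0.80 ± 0.31 at 1% (unadjusted p = 0.0173, adjusted p = 0.897 by limma) and -0.65 ± 0.31 at 0.05% (unadjusted p = 0.048, adjusted p = 1.00). The other probe sets gave -0.53 ± 0.23 and -0.32 ± 0.19 at 1%, and -0.30 ± 0.23 and -0.14 ± 0.19 at 0.05%. All 3 Per2 probe sets were therefore lower on average in both quercetin groups, with only the brightest reaching an unadjusted p under 0.05 at both doses. Without control replicate 2 the brightest gave -0.55 at 1% and -0.40 at 0.05%, neither at an unadjusted p under 0.05.

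Per3, the third period gene, had 4 tested probe sets and 2 below the filter. The brightest ran from 5.02 to 7.38 with a median of 5.73 in controls, from 4.80 to 5.96 with a median of 5.44 at 0.05% and from 4.55 to 6.63 with a median of 5.32 at 1%. Its differences of -0.43 ± 0.33 at 1% and -0.41 ± 0.33 at 0.05% were within the spread between mice (adjusted p = 0.975 and 1.00 by limma). The highest mice were control replicate 2 (7.38) and 1% replicate 6 (6.63). Without control replicate 2 the differences were -0.13 at 1% and -0.11 at 0.05%. The other tested probe sets gave differences from -0.38 to -0.18 at 1% and from -0.12 to -0.02 at 0.05%.

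Nr1d1, the receptor that represses Arntl, was highest at the low dose. Its 1 probe set ran from 4.34 to 5.82 with a median of 4.90 in controls, from 5.28 to 7.02 with a median of 6.08 at 0.05% and from 4.28 to 5.91 with a median of 4.94 at 1%. At 0.05%, 6 of 6 mice lay above the control mean and 3 of 6 above every control. The mean was 4.99 ± 0.68 in controls, 6.07 ± 0.67 at 0.05% and 5.00 ± 0.69 at 1% (SD, n = 6). The difference was 1.08 ± 0.33 for 0.05% against control (unadjusted p = 0.00355, adjusted p = 1.00 by limma) and -1.06 ± 0.33 for 1% against 0.05% (adjusted p = 0.457). The signal was weak, with a median intensity of 26.4 over the 18 mice, and with 1 in place of 16 added before the log2 the same differences were 1.84 and -1.84. The log2 ratio of 3′ to 5′ Gapdh control probe sets, a measure of RNA integrity and labelling, correlated with Nr1d1 over the mice at r = -0.63, and its part in the difference was not tested.

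Nr1d2, the paralogous receptor, gave a strong signal and no such pattern. It ran from 8.89 to 10.76 with a median of 10.06 in controls, from 8.93 to 10.88 with a median of 10.19 at 0.05% and from 9.35 to 10.27 with a median of 9.95 at 1%. The differences of -0.13 ± 0.31 at 1% and -0.03 ± 0.31 at 0.05% were smaller than their standard errors. A second Nr1d2 probe set was below the filter.

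Among the activators, Arntl measured 7.80 ± 0.53 in controls, 8.001 ± 0.30 at 0.05% and 8.002 ± 0.30 at 1% (SD, n = 6). The control range was 6.94 to 8.29 with a median of 7.96, and the quercetin groups ran from 7.43 to 8.28 (median 8.06) and from 7.63 to 8.50 (median 8.0). The groups overlapped, and the differences were 0.20 ± 0.21 for each dose (adjusted p = 0.976 at 1% and 1.00 at 0.05% by limma). Without control replicate 2 they were 0.030 at 1% and 0.029 at 0.05%, and the dimmer Arntl probe set 1457740_at gave -0.11 ± 0.22 and 0.03 ± 0.22. The low values belonged to control replicates 2 (6.94) and 6 (7.41) and 0.05% replicate 5 (7.43). Clock, whose transcript is known to cycle little in liver, measured 8.17 ± 0.40, 8.34 ± 0.29 and 8.35 ± 0.28 in the same order, and its 4 probe sets gave differences between 0.02 and 0.34 against control at the 2 doses. Npas2 ran from 4.13 to 6.97 with a median of 5.44 in controls, from 5.54 to 6.82 with a median of 6.37 at 0.05% and from 4.62 to 6.47 with a median of 5.67 at 1%. Its difference of 0.64 ± 0.38 for 0.05% against control had an adjusted p of 1.00 by limma and was 0.34 without control replicate 2 and 1.20 with 1 added before the log2, and that of 1% against 0.05% was -0.71 ± 0.38 (adjusted p = 0.785).

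Dbp, the output factor with the strongest daily rhythm of this family in liver, was the most variable member and had the same mean in controls and at 0.05%. Its brighter probe set ran from 5.38 to 9.57 with a median of 5.94 in controls, from 5.10 to 8.80 with a median of 7.06 at 0.05% and from 5.32 to 8.003 with a median of 6.45 at 1%. The means were 6.95 ± 1.88, 6.95 ± 1.58 and 6.44 ± 0.98 (SD, n = 6). The differences were -0.50 ± 0.72 at 1% and 0.004 ± 0.72 at 0.05%. The other Dbp probe set gave -0.83 ± 0.69 at 1%, 0.16 ± 0.69 at 0.05% and -0.99 ± 0.69 for 1% against 0.05%. Without control replicate 2 the difference at 1% was 0.021 on the brighter probe set and -0.33 on the other. Tef, its relative, ran from 8.20 to 9.93 with a median of 8.79 in controls, from 7.79 to 9.22 with a median of 8.78 at 0.05% and from 7.96 to 9.40 with a median of 8.65 at 1%. The brightest Tef probe set differed by -0.27 ± 0.28 at either dose, and by -0.07 at either dose without control replicate 2.

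A second, dimmer Tef probe set, 1438033_at, held the smallest adjusted p among the members. It ran from 4.52 to 5.29 with a median of 5.16 in controls, from 5.01 to 5.76 with a median of 5.23 at 0.05% and from 4.52 to 4.85 with a median of 4.76 at 1%. The 6 mice on 1% all lay below the 6 on 0.05%, and the share of all tested probe sets separated in this way was not counted. The difference was -0.59 ± 0.16 (unadjusted p = 0.00113, adjusted p = 0.399 by limma), or -1.12 with 1 added before the log2. In that comparison 6.76% of all tested probe sets had an unadjusted p under 0.05. The brightest Tef probe set showed a difference of -0.003 ± 0.28 in that comparison, so the probe sets of the gene disagreed, and over the mice they correlated at r = 0.46.

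Over the 10 genes, each by its brightest probe set, the median log2 difference in 1% against control was -0.20, in 0.05% against control -0.01 and in 1% against 0.05% -0.06. Over the alternatives, left-out mice included, these medians ran from -0.39 (without control replicate 1) to -0.05 (without control replicate 2), from -0.28 (without 0.05% replicate 4) to 0.19 (without 0.05% replicate 2) and from -0.24 (without 0.05% replicate 2) to 0.02 (without 0.05% replicate 4). The medians over all tested probe sets were -0.05, -0.003 and -0.05. Of the 21 member probe sets, 15 were lower and 6 higher at 1% than in controls, 10 were lower and 11 higher at 0.05%, and 17 were lower and 4 higher at 1% than at 0.05%. Over the arrays as deposited, 8280 of the 22888 tested probe sets were higher at 1% than in controls, 11280 at 0.05% than in controls and 8262 at 1% than at 0.05%. After each array was shifted to a common median these counts were 10496, 9640 and 11917.

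**Figure D2:**
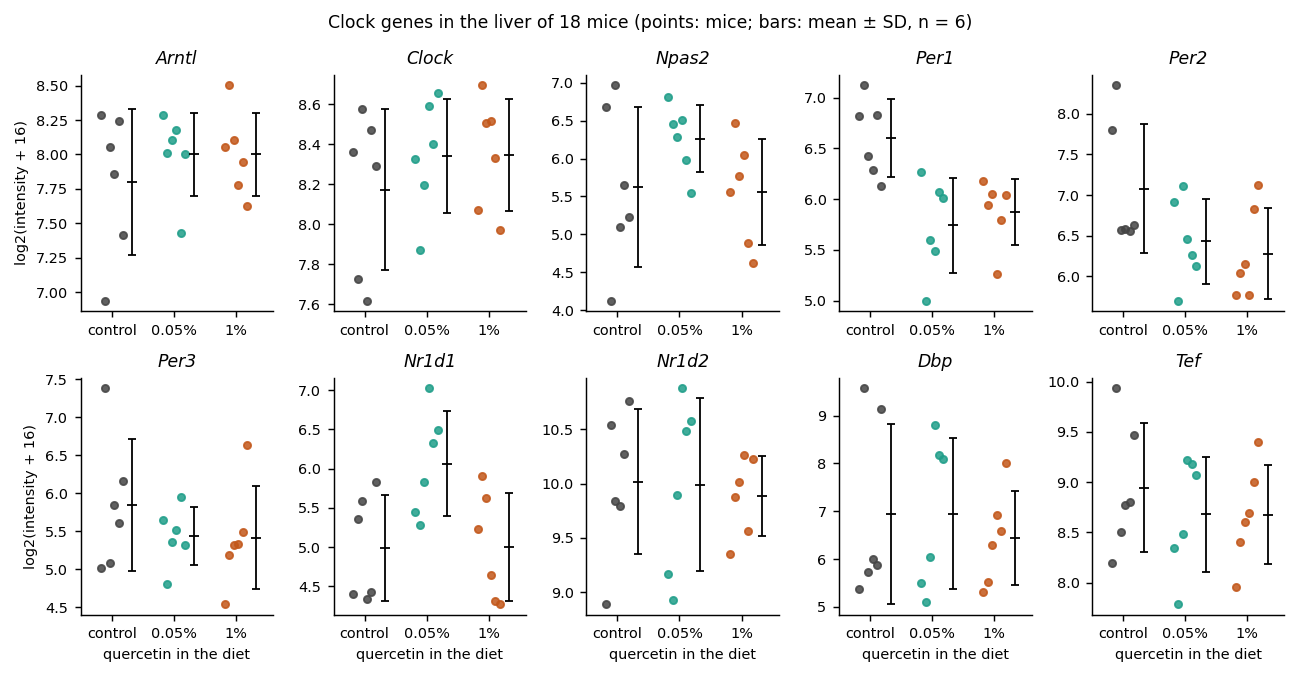
Level of each of the 10 clock genes (y axis, log2 of intensity plus 16, brightest probe set; the y range differs between panels) in each mouse of the 3 diets (x axis, quercetin in the diet), with bars for mean ± SD of 6 mice. Per1 is lower in 5 of 6 mice of each quercetin group than in any control, and Dbp spreads from 5.10 to 9.57 with high mice in all 3 diets.

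The variation among mice on the same diet was large for most members. The SD within diets of Dbp was 1.53 on the brighter probe set, at the 99.9th percentile of all tested probe sets, whose median was 0.28. Its other probe set gave 1.46, and the 2 correlated at r = 0.98 over the 18 mice. Npas2 had an SD of 0.78 (99.2nd percentile), Nr1d1 0.68, Per3 0.67, Nr1d2 0.64, Per2 0.64 and Tef 0.57, which lay between the 97.3rd and the 98.6th percentile. Per1 (0.40), Arntl (0.39) and Clock (0.33) were nearer to the rest of the array, at the 86.7th, 86.1st and 70.7th percentile. Other probe sets of the same genes could vary less, as with Tef 1438033_at (0.28, 50.2nd percentile), Per3 1460662_at (0.25, 37.8th) and Per2 1417603_at (0.36, 80.6th). From the lowest to the highest mouse, Dbp spanned 22.03-fold, Npas2 7.17-fold, Per3 7.11-fold, Nr1d1 6.71-fold and Per2 6.27-fold on this scale, and Clock 2.11-fold. Adding 16 narrows the range of dim probe sets.

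The high Dbp values came from all 3 diets. They were 9.57 and 9.14 in control replicates 2 and 6, 8.80, 8.18 and 8.08 in 0.05% replicates 4, 5 and 6, and 8.003 in 1% replicate 6. The other 12 mice lay at or below 6.92, and the gap of 1.08 below 8.003 was the widest between neighbouring values. The log2 difference of Dbp minus Arntl, which is used here only to order the mice, was highest in control replicate 2 (2.63), control replicate 6 (1.73), 0.05% replicate 5 (0.75) and 0.05% replicate 4 (0.62). It was lowest in 1% replicate 2 (-2.97) and control replicate 1 (-2.91). Its median was -2.09 in controls, -0.99 at 0.05% and -1.58 at 1%, with ranges of -2.91 to 2.63, -2.90 to 0.75 and -2.97 to 0.38, so that the diets overlapped.

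The relation of the genes over the 18 mice was asked of all 45 pairs of members, with 1 probe set per gene and permutation tests of 100000 resamples, two-sided, adjusted over the 45. Pearson's r passed in 13 pairs, 8 positive and 5 negative. The positive pairs were 5 of the 6 among Dbp, Tef, Nr1d2 and Per3, where Per3 with Nr1d2 missed the threshold (r = 0.55, adjusted p = 0.0509), Per1 with Per2, Per2 with Per3, and Arntl with Npas2. The negative pairs set Arntl against Per3, Dbp and Tef, and Npas2 against Per3 and Tef. The Per3 probe set used here had a weak signal, with a median of 5.43 over the 18 mice. It correlated with the other tested Per3 probe sets at r = 0.73, 0.57 and 0.11. The Arntl probe sets correlated at 0.54, and the Per2 probe set used here with the others of its gene at 0.71 and 0.60. The pairs thus describe the brightest probe set of each gene. All 13 had the same sign within each of the 3 diets, and how many of the other pairs did so was not counted. Some of these within-diet values were small, as for Npas2 with Per3 at 0.05% (r = -0.06) and Per1 with Per2 at 1% (r = 0.24). With diet means removed 12 of the 13 passed, the exception being Per1 with Per2 (r = 0.51, adjusted p = 0.080).

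**Figure D3:**
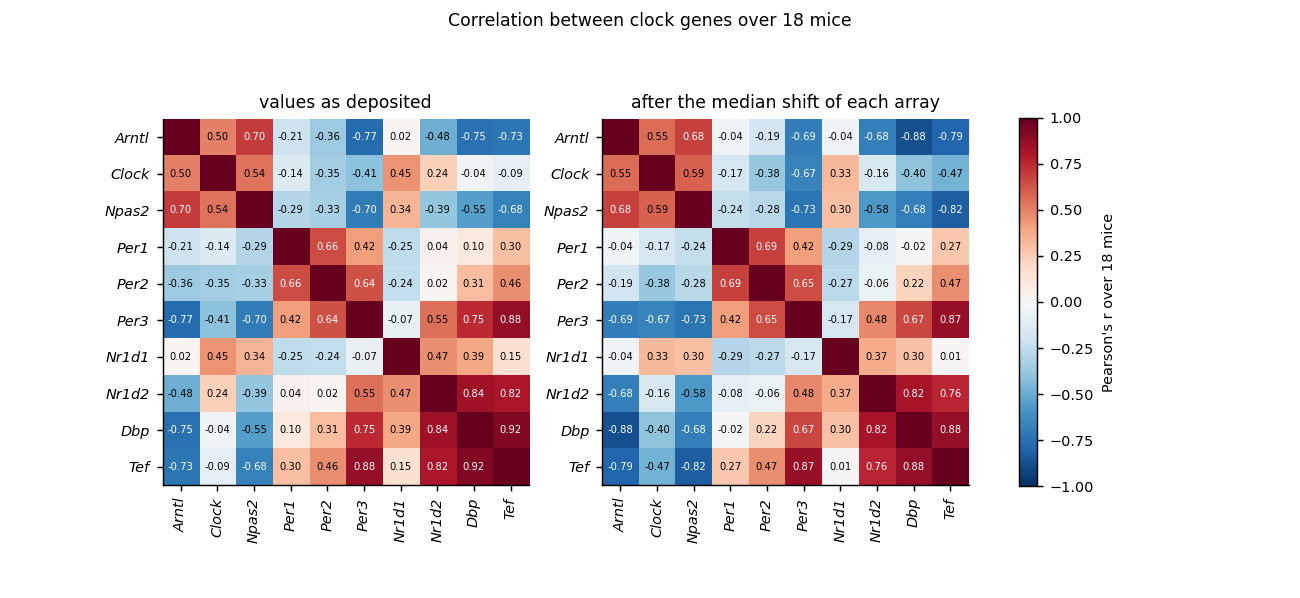
Pearson's r between the 10 clock genes over the 18 mice, as deposited (left) and after each array was shifted to a common median (right), with red for positive and blue for negative values. Dbp, Tef, Nr1d2 and Per3 form a positive block, from 0.55 to 0.92 on the left, and Arntl and Npas2 are negative against it, from -0.77 to -0.39.

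Dbp and Tef had the closest relation. It was r = 0.92 (permutation p = 1e-05, the smallest that the resamples can give, adjusted p = 0.000225) and rho = 0.94 (permutation p = 1e-05), and r was 0.96 in controls, 0.96 at 0.05% and 0.93 at 1%. Without control replicates 2 and 6, which were farthest from the median of Dbp, r was 0.88. Per3 and Tef gave r = 0.88 (adjusted p = 0.000225) and rho = 0.81 (adjusted p = 0.00101). Nr1d2 followed Dbp at r = 0.84 (adjusted p = 0.0003) and rho = 0.88, and Tef at r = 0.82 (adjusted p = 0.000337) and rho = 0.83. These 4 pairs passed without any 1 mouse and also without the 2 mice farthest from the median. Per3 and Dbp gave r = 0.75 (adjusted p = 0.00189) and rho = 0.72, which fell to 0.64 (adjusted p = 0.0607) without the 2 farthest mice, control replicate 2 and 1% replicate 6.

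Within each side of the gap in Dbp, the relation to Tef remained, with r = 0.81 over the 12 mice below it and 0.79 over the 6 above it (permutation p = 0.0014 and 0.0347, exact for the latter). The values for Nr1d2 were 0.69 and 0.51, and those for Per3 0.51 and 0.53, of which only Nr1d2 below the gap had a p under 0.05 (permutation p = 0.0129). After each array was shifted to a common median, they were 0.74 and 0.77 for Tef, 0.61 and 0.77 for Nr1d2, and 0.37 and 0.63 for Per3.

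Arntl ran against these genes. With Dbp it gave r = -0.75 (permutation p = 0.00033, adjusted p = 0.00247) and rho = -0.65 (adjusted p = 0.028), with Per3 r = -0.77 (adjusted p = 0.00283) and rho = -0.55 (adjusted p = 0.0699), and with Tef r = -0.73 (adjusted p = 0.00321) and rho = -0.65 (adjusted p = 0.028). In controls the 3 values of r were -0.95, -0.94 and -0.95, at 0.05% -0.37, -0.41 and -0.36, and at 1% -0.83, -0.59 and -0.63, differences between diets that were not tested. Control replicates 2 and 6 were the mice farthest from the Arntl median. Without them the relation to Dbp was -0.54 (adjusted p = 0.172), that to Per3 -0.51 (adjusted p = 0.195) and that to Tef -0.49 (adjusted p = 0.203). None of the 3 passed without these mice, though each kept its sign. Leaving out the mice farthest from the median also narrows the range of Arntl, so this omission cannot tell how far the relations depend on them. Without control replicate 2 alone, Arntl with Per3 and with Tef no longer passed (adjusted p = 0.068 for both), whereas Arntl with Dbp did in each omission of 1 mouse. Within the sides of the Dbp gap, the r of Arntl with Dbp was -0.56 and -0.54 (permutation p = 0.0612 and 0.264, exact for the latter), and -0.71 and -0.69 after each array was shifted to a common median.

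Npas2, which forms the same kind of dimer as Clock, moved with Arntl at r = 0.70 (adjusted p = 0.00485) and rho = 0.72 (adjusted p = 0.00945). It ran against Per3 at r = -0.70 (adjusted p = 0.00531) and rho = -0.54 (adjusted p = 0.0748), and against Tef at r = -0.68 (adjusted p = 0.00785) and rho = -0.62 (adjusted p = 0.0359). Its lowest values, 4.13 in control replicate 2 and 4.62 in 1% replicate 6, belonged to mice with high Dbp, and the 3 pairs did not pass without control replicate 2 (r = 0.56, -0.54 and -0.55, each with adjusted p = 0.092). With Dbp itself Npas2 gave r = -0.55 (adjusted p = 0.0541), which missed the threshold. Without the 2 mice farthest from the median the pairs with Arntl, Per3 and Tef gave 0.51, -0.36 and -0.46.

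Per1 was called only with Per2, at r = 0.66 (adjusted p = 0.0118) and rho = 0.50 (adjusted p = 0.0944). Per2 and Per3 gave r = 0.64 (adjusted p = 0.0201) and rho = 0.55 (adjusted p = 0.0699). Control replicate 2 had the highest value of each of the 3 period genes, and without it the pairs gave 0.51 (adjusted p = 0.121) and 0.37 (adjusted p = 0.287). Without control replicates 1 and 2, the mice farthest from the Per2 median, Per2 with Per3 gave 0.65 (adjusted p = 0.0461), and without control replicate 2 and 0.05% replicate 2 Per1 with Per2 gave 0.40 (adjusted p = 0.289). Per1 showed no called relation to Dbp (r = 0.10, adjusted p = 0.795), Arntl (-0.21, adjusted p = 0.508) or Nr1d2 (0.04, adjusted p = 0.921). Clock had no called pair as deposited, the highest being r = 0.54 with Npas2 (adjusted p = 0.0564), but after the shift to a common median it was called with Per3 (r = -0.67, adjusted p = 0.00855), Npas2 (0.59, adjusted p = 0.0271) and Arntl (0.55, adjusted p = 0.0406).

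Nr1d1 likewise had no called pair as deposited, and with diet means removed it was called with Nr1d2 (r = 0.58, adjusted p = 0.0389). Within the diets that pair gave 0.61 in controls, 0.97 at 0.05% and -0.17 at 1%. The r of Nr1d1 with Dbp was 0.39 over all mice, but 0.67 in controls, 0.97 at 0.05% and -0.76 at 1%. With Arntl it was -0.60, -0.18 and 0.88 in the same order. These within-diet values rest on 6 mice each, come from a weak signal, and their difference was not tested. Only 1 of the 6 mice on 1% quercetin, replicate 6 with a Dbp level of 8.003, lay above the gap in Dbp. The relation at 1% was not computed without that mouse.

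**Figure D4:**
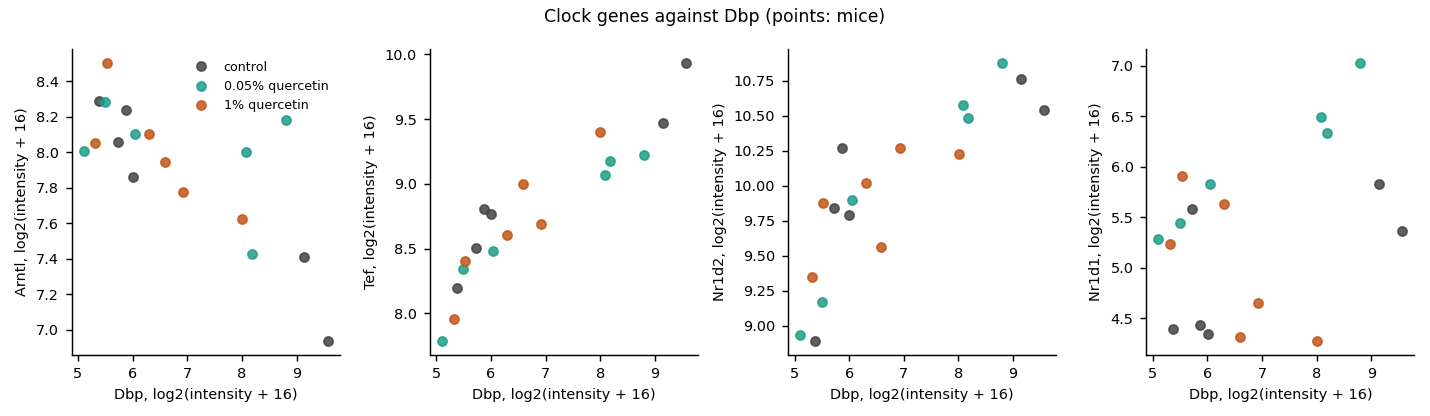
Arntl, Tef, Nr1d2 and Nr1d1 (y axes) against Dbp (x axes), all as log2 of intensity plus 16, with 1 point per mouse coloured by diet. Arntl falls with Dbp (r = -0.75), with control replicate 2 lowest at 6.94, Tef (0.92) and Nr1d2 (0.84) rise with it, and Nr1d1 shows no single line.

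The differing medians of the arrays bear on these relations. As deposited, the median r of all other tested probe sets with Dbp was 0.31, and with Arntl -0.07. The array median itself correlated with Nr1d2 (r = 0.71), Dbp (0.58), Clock (0.57) and Tef (0.50). After each array was shifted to a common median, the median r with Dbp was -0.006 and with Arntl 0.009, and all 13 called pairs passed again, with 19 called in all. Arntl with Dbp became -0.88, Dbp with Tef 0.88, Nr1d2 with Dbp 0.82 and Npas2 with Tef -0.82. The first 2 principal components of the scaled members held 49.8% and 23.8% of their variance. Tef, Per3 and Dbp had the highest loadings on the first component (0.42, 0.42 and 0.39) and Arntl (-0.38) and Npas2 (-0.35) the lowest, and Nr1d1 (-0.54), Clock (-0.44) and Nr1d2 (-0.43) had the lowest loadings on the second.

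Among all other tested probe sets, those most like Arntl over the 18 mice were of Nfil3 (r = 0.87, or 0.90 after the median shift), a repressor that competes with DBP and TEF for D-boxes, Pnrc1 (0.79), a nuclear receptor coregulator, Trub1 (0.79), Usp37 (0.75), Irf2bp2 (0.75) and Nrip1 (0.72), another coregulator of nuclear receptors. Those most opposed to Arntl were of Spib (-0.76), Azin1 (-0.73), Srebf2 (-0.73), Anapc1 (-0.73), Pnpla8 (-0.72) and Nat8f4 (-0.71). Those most like Dbp were of Mpg (0.91, or 0.71 after the shift), a DNA glycosylase, Wdr36 (0.89), Azin1 (0.86), Pik3cb (0.86), Rtcb (0.85) and Dnajb6 (0.85). Those most opposed to Dbp were of Nfil3 (-0.77, or -0.84 after the shift), Clpx (-0.76), Nrip3 (-0.72), Slc31a2 (-0.71), Pnrc1 (-0.70) and Irs2 (-0.66). An r beyond 0.7 in size was reached with Arntl by 16 of 22867 probe sets (0.070%) and with Dbp by 314 (1.37%). These genes were picked for their r, which is given as a description. The r values as deposited also carry the differing array medians described above. After the median shift the genes listed as most opposed to Arntl lay between -0.61 and -0.50, and those most like it between 0.74 and 0.90. For Dbp, those most like it then lay between 0.56 and 0.79, and those most opposed between -0.84 and -0.73.

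Of 22 other core clock genes, 17 had a tested probe set, and 0 passed in any comparison by limma. An unadjusted p under 0.05 was met by 1 in 1% against control, 2 in 0.05% against control and 2 in 1% against 0.05%. Of all tested probe sets, 5.02%, 3.85% and 6.76% met that threshold in the same order. Rorb, an activator at ROR elements, differed by -0.60 ± 0.13 at 0.05% (adjusted p = 0.562), and Usp2, a deubiquitinase under clock control, by -0.61 ± 0.23 (adjusted p = 1.00). Hlf, the relative of Dbp and Tef, differed by -0.38 ± 0.17 at 1% (adjusted p = 0.969). The list's median difference was -0.01 at 1% and -0.03 at 0.05%. Cry1, a repressor that is known to peak late in the cycle, had r = 0.63 with Arntl and -0.49 with Dbp, and Cry2 had -0.43 and 0.66, both chosen here after their values were seen.

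Of 19 output genes of the liver clock, 17 were tested and 0 passed by limma. At an unadjusted p under 0.05, 4 were lower in each comparison with controls, and 3 were higher and 1 lower for 1% against 0.05%. Of all tested probe sets, 5.02% met that threshold at 1% and 3.85% at 0.05% against control, and 6.76% for 1% against 0.05%. Lpin1, a phosphatidate phosphatase, differed by -1.42 ± 0.34 at 1% (adjusted p = 0.450) and -1.06 ± 0.34 at 0.05% (adjusted p = 1.00). Noct, a rhythmic phosphatase once taken for a deadenylase, differed by -1.21 ± 0.40 at 1% and -1.22 ± 0.40 at 0.05%, and Upp2, uridine phosphorylase, by -1.39 ± 0.45 at 1%. Alas1, the first enzyme of heme synthesis, differed by -1.14 ± 0.34 at 0.05% and by 1.42 ± 0.34 for 1% against 0.05% (adjusted p = 0.275). Noct correlated with Per1 at r = 0.78, a value chosen after it was seen.

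Genes that respond to hormones, fasting and feeding are given beside Per1 and Per2, since these respond to the same signals. Over all 22888 tested probe sets as deposited, 8280 were higher at 1% than in controls and 11280 at 0.05%, so most were lower at 1%. An unadjusted p under 0.05 was met by 5.02% of all at 1% and by 3.85% at 0.05%. Of 14 tested glucocorticoid and immediate early genes, 10 were lower at 1% and 10 at 0.05%, with medians of -0.36 and -0.10, and at 1% an unadjusted p under 0.05 was reached by 2, both lower: Ddit4 (-0.997 ± 0.23, adjusted p = 0.395) and Tsc22d3 (-0.79 ± 0.26). Of 9 fasting genes, 5 were lower at 1%, with a median of -0.16. By limma, 1 of them was higher and 1 lower at 1% at an unadjusted p under 0.05, and 1 was lower at 0.05%. Of 9 feeding genes, 9 were lower at 1% with a median of -0.75, 7 of them at an unadjusted p under 0.05, led by Thrsp (-1.74 ± 0.44, adjusted p = 0.510), Fasn (-1.42 ± 0.46) and Elovl6 (-1.08 ± 0.37). At 0.05%, 8 of the 9 were lower, with a median of -0.21 and 0 at an unadjusted p under 0.05. None of these lists had a member that passed, and their part in the Per1 and Per2 values was not tested. The lists, like those above, were chosen with earlier results of these data known, so their counts are a description only.

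Marker lists of further liver cell types are given beside Dbp, Arntl and Per1. Over the 18 mice, the mean log2 level of 8 Kupffer cell markers correlated at r = 0.05 with Dbp and -0.06 with Arntl, that of 7 endothelial markers at 0.37 and 0.07, and that of 7 stellate cell markers at 0.37 and 0.07. The lymphocyte list, with 4 of 6 markers tested, gave 0.48 with Dbp and -0.25 with Arntl, and its summed intensity ran from 152 to 660 in controls, 85.7 to 431 at 0.05% and 112 to 461 at 1%. Cd3e and Cd79a, defining markers of that list, were below the filter. With Per1 the values were 0.49 for hepatocyte markers and -0.37 for endothelial markers, and the other lists lay between -0.05 and 0.40, the highest being the erythroid list with 1 of 5 markers tested. The summed intensity of the hepatocyte markers ran from 56443 to 67943 in controls, 56879 to 66504 at 0.05% and 52878 to 58438 at 1%. That of the erythroid list ran from 475 to 663, 471 to 652 and 413 to 516 in the same order. Their part in the results was not tested.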

How the data were processed

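Each array held the labelled RNA of 1 liver, hybridised to an Affymetrix mouse array after labelling with a 3′ kit, per the labels' protocols. The authors deposited linear intensity values, 1 per probe set, and the signal software and scaling are not given in the sources here. They ran from 0.0118 to 18108. Of 45101 probe sets, 64 were controls, 34945 had 1 gene symbol, 932 several and 9160 none, and Entrez numbers of 34741 matched RefSeq annotation of GRCm38.p6, which changed 0 symbols.

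Values were turned to log2 after adding 16. Single-symbol probe sets with a mean above the 40th percentile of non-control probe sets (4.69) were tested with limma 3.58.1 under R 4.3.3 (lmFit and eBayes, 3 group means, 18 arrays, 15 residual degrees of freedom). Adjusted p (Benjamini-Hochberg) had to be under 0.05, two-sided. The median standard error of a difference was 0.16. The code was first tested on simulated data. Pearson's and Spearman's coefficients used Python 3.11.15 with scipy 1.17.1 and the brightest tested probe set of each gene. All probe sets of the members were named, and the 6 most and 6 least like Arntl and Dbp. Of each list except the fasting genes, up to 4 genes were named by smallest p under 0.05. Members and lists were chosen with earlier results of these data known. Alternatives were a median shift per array, quantile normalization, no filter or the 60th percentile, 1 in place of 16, 1 probe set per gene, eBayes with trend and robust, a replicate block, and each array left out. For pairs, they also included removal of diet means, averaging all tested probe sets of a gene and leaving out the 2 farthest mice. The split at the Dbp gap was added after seeing the data.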

Additional observations from a re-analysis of the deposited data

Results flagged for a closer look

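Among 63 groups of 6 mice, the 21 tested member probe sets in the 3 diets, 1 had a mouse far from the others. Arntl in 0.05% quercetin replicate 5 was 7.43 on probe set 1425099_a_at, while the nearest of the other 5 mice was at 8.002, a gap of 0.671 of the group's range against a limit of 0.625. Chance alone marks about 1 in 20 such groups. The same mouse had a high Dbp value of 8.18.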

How the results depend on the processing

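Over 63 differences of member probe sets and 1578 alternatives, 0 passed an adjusted p of 0.05, the smallest being 0.224. The sign turned in 86 alternatives of 23 differences, none larger than 0.50 at first, and the cause was not tested. With the median shift 1% against 0.05% was 0.022 for Clock 1435775_at, 0.045 for Per3 1421087_at and 0.060 for Tef 1424175_at, and 0.05% against control was -0.022 for Dbp 1438211_s_at. Quantile normalization gave 0.049, 0.034 and -0.020 for the latter 3, and 0.010 for Nr1d2 1416958_at at 0.05%. Npas2 1421037_at at 1% against control was 0.0021 with quantile normalization and 0.15 with 1 added. Leaving out 1 mouse gave, for 1% against control, Arntl 1457740_at -0.27 to 0.071, Clock 1435775_at -0.091 to 0.10, Npas2 -0.36 to 0.20, Nr1d1 -0.17 to 0.18, Nr1d2 -0.36 to 0.016 and Dbp 1438211_s_at -0.82 to 0.021. For 0.05% against control it gave Arntl 1457740_at -0.093 to 0.13, Clock 1435775_at -0.016 to 0.10, Per3 1442243_at -0.24 to 0.051, Per3 1441445_at -0.21 to 0.11, Per3 1460662_at -0.077 to 0.034, Nr1d2 -0.25 to 0.19, Dbp 1438211_s_at -0.37 to 0.53 and Dbp 1418174_at -0.18 to 0.65. For 1% against 0.05% it gave Arntl 1425099_a_at -0.11 to 0.076, Arntl 1457740_at -0.30 to 0.037, Clock 1418659_at -0.086 to 0.083, Clock 1435775_at -0.15 to 0.042, Clock 1439314_at -0.12 to 0.15, Per1 -0.011 to 0.26, Per3 1421087_at -0.26 to 0.16, Nr1d2 -0.32 to 0.071 and Tef 1424175_at -0.18 to 0.14.

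Calls over all probe sets stayed few. For 1% against control (1) they were 2 after the median shift or quantile normalization, 0 at the 60th percentile, with 1 added or with 1 probe set per gene, and 0 to 5 without 1 mouse. For 0.05% against control (0) they were 1 after the median shift, quantile normalization or no filter, and 0 to 1 without 1 mouse. For 1% against 0.05% (2) they were 0 after the median shift, quantile normalization, the 60th percentile or 1 probe set per gene, 1 with no filter or 1 added, and 0 to 3 without 1 mouse. For any diet difference (1) they were 2 after quantile normalization, with no filter or with trend and robust, 0 at the 60th percentile, with 1 added or 1 probe set per gene, and 0 to 4 without 1 mouse. With the replicate number as a block the 4 counts were 2, 0, 0 and 2. Over 18 same-numbered pairs the deviations from the diet means correlated at -0.42 to 0.27, with 4 over 0.1. Mice of different numbers were not compared, so these values cannot tell whether the numbers pair the mice. Called pairs of clock genes (13, of which 5 negative) were 20 after quantile normalization (10 negative) and 12 with the probe sets of a gene averaged (3 negative). They were 5 without the 2 mice farthest from the median (0 negative) and 6 to 16 without 1 mouse. The lowest of these, without control replicate 2, had 1 negative pair. In 320 alternatives of the called pairs the sign turned in 0 and the threshold was missed in 24. These include the splits at the Dbp gap, added after seeing the data and judged by unadjusted p, where the others were judged by adjusted p.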

Other observations

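The 5 member probe sets below the filter on low signal were left out of the main test. Npas2 1421036_at ran from 4.09 to 5.32, Per3 1458176_at from 4.10 to 5.99, Per3 1421086_at from 4.04 to 4.80, Nr1d2 1416959_at from 4.12 to 5.59 and Tef 1450184_s_at from 4.09 to 5.15 over the 18 mice. The means of Npas2 1421036_at were 4.41 ± 0.46 in controls, 4.85 ± 0.41 at 0.05% and 4.41 ± 0.32 at 1% (SD, n = 6), the same order as on the tested probe set of the gene, where 0.05% was highest.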
